A study of Homo sapiens with 32 samples.

Results

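The comparison set the list of m6A peaks labelled RKO knockdown against the list labelled LOVO knockdown. Overlapping peaks of the same strand were merged within each list on chromosomes 1 to 22 and X, which gave 34015 regions in the RKO knockdown list and 31060 in the LOVO knockdown list, 65075 of the 338017 regions in the 12 peak lists of the series. A region counted as shared when at least 1 bp of it lay under a peak of the other list on the same strand. By this rule 21139 regions of the RKO knockdown list had no LOVO knockdown peak and 12876 had one, while 17981 regions of the LOVO knockdown list had no RKO knockdown peak and 13079 had one.

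N6-methyladenosine (m6A) is a methyl mark on adenosines inside RNA. It is written as RNA is transcribed by a complex whose catalytic subunit is METTL3, most often where adenosine stands in a GGAC-like stretch, and it is read by proteins that act on splicing, export, decay and, for RNA held at chromatin, on the chromatin itself. MeRIP-seq captures RNA fragments with an antibody to the mark and sequences them beside an input library. A peak therefore needs both a transcript that is present and methylation on it, and the absence of a peak cannot be told apart between absent RNA and unmethylated RNA.

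Chromatin-associated RNA of 4 human cell lines was profiled in 32 libraries. RKO and LOVO are established lines labelled as colon adenocarcinoma cells, and OVCAR8 and SKOV3 are ovarian cancer lines. The groups used here were METTL3 knockdown in RKO, METTL3 knockdown in LOVO, and the controls of RKO and of LOVO, which carry the genotype label WT. All 4 groups received the same m6A and non-m6A spike-in RNAs, per the labels' protocols. Each of these groups has 2 MeRIP libraries but 1 deposited peak list, so the lists have no replicates, no spread between replicates can be given, and no test between groups was possible. The 8 ovarian lists served only to show where else a region carried a peak. Their cell-line labels are themselves in doubt. MUC16, the gene of the CA125 antigen, had 5 and 6 peaks in the 2 lists labelled SKOV3 knockdown and 5 and 5 in those labelled OVCAR8 control, and 0 in the other 8 lists of the series. METTL3 itself had 3 peaks in RKO knockdown, 2 in LOVO knockdown, 2 in RKO control and 2 in LOVO control, which does not measure its RNA level.

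The label of the RKO knockdown list was set against marker genes. The marker lists were chosen with earlier results of these data known, so they are no independent check of the label. Intestinal genes had 17 peaks in the list labelled RKO knockdown and 24 in RKO control, and epithelial genes had 2 and 11. HNF4A and CDH1 had no peak in either RKO list, and CDX2 had 0 in the list labelled RKO knockdown and 3 in RKO control. Mesenchymal and neural genes ran the other way, with 64 and 75 peaks in the list labelled RKO knockdown against 21 and 3 in RKO control. ZEB1 held 20 of those 21. Neural genes are not markers of the colon adenocarcinoma that the label names, and what accounts for their peaks was not tested. The peaks are therefore described as those of the list labelled RKO knockdown, and each direction drawn from it describes that list and not the RKO line.

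The difference between the lists could be seen at single promoters. The sequences below are of 6 genes whose start region lay under a peak of one list and, but for EGFR, not under the other. Each runs from 170 bases before to 30 bases after the annotated start, on the strand of the transcript, from RefSeq (GRCh38.p14), with the bases under the peak in capitals. They were chosen after their values were seen. The first 4 had their peak in the list labelled RKO knockdown. CDH2 encodes N-cadherin of neural and mesenchymal cells (chr18:28177101-28177300, minus strand), PTPRZ1 a receptor phosphatase of glial cells (chr7:121872991-121873190, plus strand), SOX2 a transcription factor of neural and other stem cells (chr3:181711755-181711954, plus strand) and EGFR a growth factor receptor (chr7:55018847-55019046, plus strand). The last 2 had theirs in the LOVO knockdown list. GPA33 encodes an antigen of the intestinal epithelium (chr1:167090348-167090547, minus strand) and CEACAM5 the carcinoembryonic antigen (chr19:41708456-41708655, plus strand).
CDH2: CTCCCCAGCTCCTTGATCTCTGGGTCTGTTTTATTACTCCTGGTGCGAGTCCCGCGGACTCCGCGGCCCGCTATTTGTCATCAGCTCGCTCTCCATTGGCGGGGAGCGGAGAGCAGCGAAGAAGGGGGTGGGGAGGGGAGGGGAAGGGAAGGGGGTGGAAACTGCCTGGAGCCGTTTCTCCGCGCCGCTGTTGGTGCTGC
PTPRZ1: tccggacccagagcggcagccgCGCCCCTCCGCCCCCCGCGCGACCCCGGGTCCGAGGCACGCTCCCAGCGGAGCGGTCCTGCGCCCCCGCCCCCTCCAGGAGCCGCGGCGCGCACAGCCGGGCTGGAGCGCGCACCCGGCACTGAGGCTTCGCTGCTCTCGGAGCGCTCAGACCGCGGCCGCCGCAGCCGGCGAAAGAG
SOX2: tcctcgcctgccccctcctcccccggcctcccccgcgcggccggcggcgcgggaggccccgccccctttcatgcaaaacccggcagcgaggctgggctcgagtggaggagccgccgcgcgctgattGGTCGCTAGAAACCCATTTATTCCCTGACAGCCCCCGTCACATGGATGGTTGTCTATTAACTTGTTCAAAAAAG
EGFR: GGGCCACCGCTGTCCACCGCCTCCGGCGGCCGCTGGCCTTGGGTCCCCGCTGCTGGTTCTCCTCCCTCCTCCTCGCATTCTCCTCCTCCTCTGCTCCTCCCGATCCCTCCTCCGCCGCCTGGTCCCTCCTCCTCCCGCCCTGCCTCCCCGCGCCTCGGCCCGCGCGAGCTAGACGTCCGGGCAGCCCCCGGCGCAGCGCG
GPA33: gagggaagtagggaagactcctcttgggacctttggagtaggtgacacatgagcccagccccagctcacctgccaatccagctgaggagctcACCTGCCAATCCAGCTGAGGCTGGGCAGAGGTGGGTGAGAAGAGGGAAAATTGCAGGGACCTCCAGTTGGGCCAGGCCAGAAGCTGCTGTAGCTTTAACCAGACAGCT
CEACAM5: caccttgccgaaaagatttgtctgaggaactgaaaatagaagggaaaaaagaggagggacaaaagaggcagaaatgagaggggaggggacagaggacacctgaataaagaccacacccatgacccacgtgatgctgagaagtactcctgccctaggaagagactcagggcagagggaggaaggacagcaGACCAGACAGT

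Peaks of the list labelled RKO knockdown covered all 300 bases of the CDH2 window from 250 before to 50 after its start, 198 of the PTPRZ1 window, 94 of the SOX2 window and 230 of the EGFR window. In LOVO knockdown these windows had 0, 0, 0 and 16 bases under a peak, and in RKO control and LOVO control 0 in all 4. LOVO knockdown peaks covered 128 bases of the GPA33 window and 31 of the CEACAM5 window. That CEACAM5 peak was weak, with a score of 3.39 and rank 29064 among 31060 in LOVO knockdown. In the GPA33 and CEACAM5 windows the list labelled RKO knockdown, RKO control and LOVO control all had 0 bases under a peak. Over 27195 such windows, 1467 (5.39%) lay under a peak of the list labelled RKO knockdown, against 887 (3.26%) under a LOVO knockdown peak, and RKO control and LOVO control peaks reached 536 and 495. Of these windows 930 had a peak in the list labelled RKO knockdown but not in LOVO knockdown, 350 the reverse, and 537 had both. The letters GGACT, a common form of the m6A motif, occurred on the transcript strand in 30.4% of windows with an RKO knockdown peak, 30.3% of those with a LOVO knockdown peak and 25.2% of all windows, and on either strand in 44.2% of all windows. In the windows of the 6 genes the letters occurred once on each strand at CDH2, once on the other strand at PTPRZ1 and once on the transcript strand at GPA33.

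Most regions of either list had no counterpart in the other. Of the regions labelled RKO knockdown, 62.1% (exact binomial 95% interval 61.6 to 62.7) had no LOVO knockdown peak, and of the LOVO knockdown regions 57.9% had no RKO knockdown peak. These intervals, and those below, cover counting error only, and neighbouring peaks on a transcript are not independent. The list labelled RKO knockdown was far from every list it was set against. The share of its regions without a peak was 54.9% against RKO control, 57.0% against LOVO control, 59.95% to 60.2% against the SKOV3 control lists, 66.5% to 66.9% against the OVCAR8 control lists, 66.6% to 67.2% against the lists labelled SKOV3 knockdown, and 73.5% to 74.02% against those labelled OVCAR8 knockdown. LOVO knockdown, in contrast, lacked a peak at 26.9% of its regions against LOVO control and at 38.4% against RKO control. Of the RKO control regions 50.4% had no LOVO knockdown peak.

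**Figure D1:**
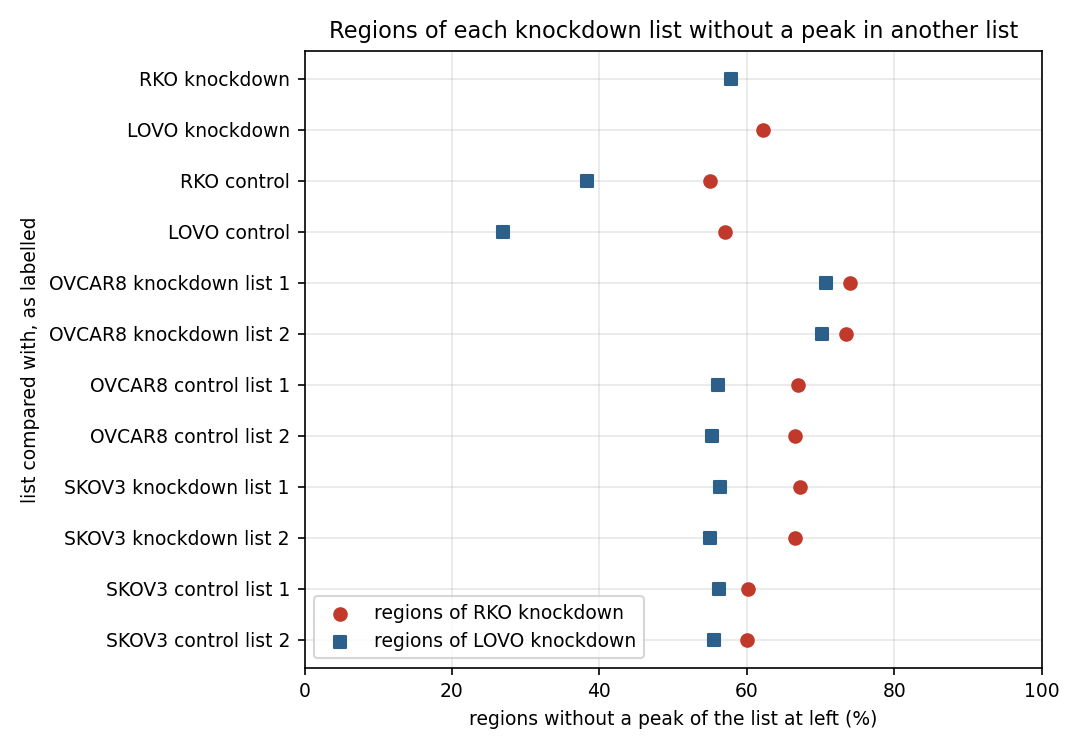
Percent of regions of the list labelled RKO knockdown (circles) and of LOVO knockdown (squares) that have no peak in the list named at left. Circles lie between 54.9% and 74.02% for all 11 lists, while squares fall to 26.9% for LOVO control and 38.4% for RKO control.

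Regions of 1 list and shared regions differed in strength, width and place. The score given by the authors ranks peaks within a list. It was not compared between lists, except that 1 alternative setting kept scores of 5 or more in both. Among regions labelled RKO knockdown, those without a LOVO knockdown peak had a median score of 7.52 and a median width of 241 bp, against 10.8 and 404 bp for shared regions. Among LOVO knockdown regions the medians were 5.02 and 240 bp for those of 1 list, against 6.42 and 383 bp for shared regions. In both lists the regions without a counterpart were therefore the weaker and narrower ones. The share without a counterpart was 73.9% in the lowest of 10 equal score classes and 39.05% (37.4 to 40.7) in the highest class of the list labelled RKO knockdown, and 75.9% and 31.3% (29.6 to 32.9) in LOVO knockdown. By width it was 77.9% under 200 bp and 35.0% at 1 kb or more in the list labelled RKO knockdown, against 72.1% and 23.4% in LOVO knockdown.

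**Figure D2:**
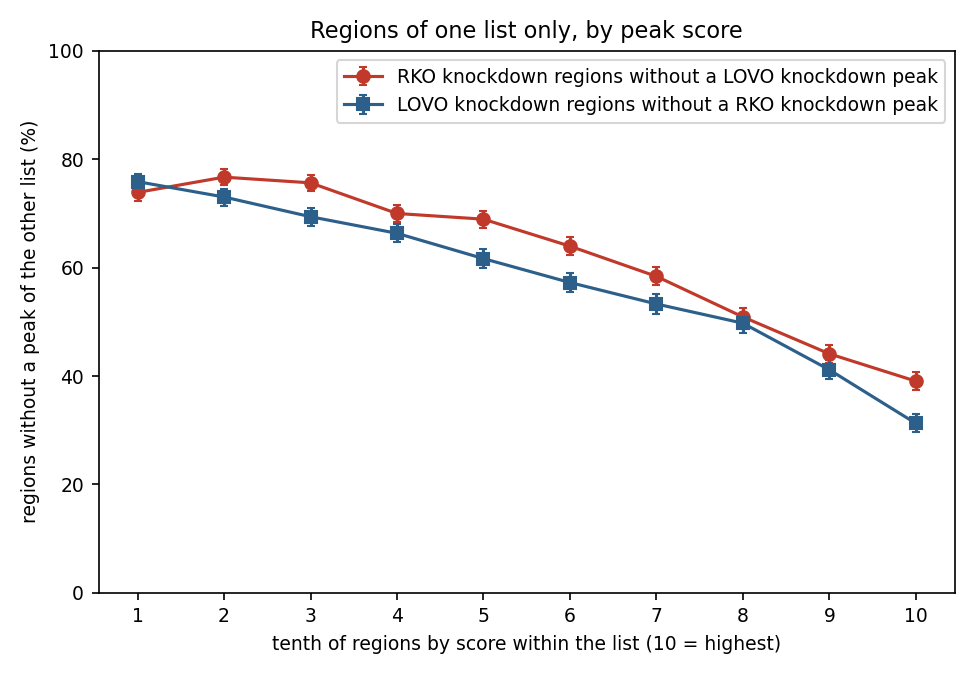
Percent of regions without a peak of the other list, by score class within each list, 10 classes of equal size from lowest (1) to highest (10), for RKO knockdown (circles) and LOVO knockdown (squares), with exact binomial 95% intervals as bars. The RKO knockdown line goes from 73.9% in class 1 and 76.7% in class 2 down to 39.05% in class 10, and the LOVO knockdown line falls throughout to 31.3%.

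The regions found only in the list labelled RKO knockdown lay more often outside protein-coding genes. Of them 74.3% overlapped a protein-coding gene, 9.05% a long non-coding RNA gene and no coding gene, and 14.1% no annotated gene. Of the regions found only in LOVO knockdown the shares were 87.4%, 4.47% and 6.08%. Of the shared regions, which overlap each other by definition, 91.5% in RKO knockdown and 91.4% in LOVO knockdown lay in protein-coding genes. Of the regions found only in the list labelled RKO knockdown, 12371 (58.5%) had no peak in any of the 10 other lists, against 3543 (19.7%) of those found only in LOVO knockdown. LOVO control is among those 10 lists for LOVO knockdown, as RKO control is for RKO knockdown.

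Signs of depth and strand moved with these differences. The read total of each library was not known. The commonest scores were spaced by 0.109 on the plus strand in the list labelled RKO knockdown, against 0.0716 in LOVO knockdown, 0.0564 in RKO control and 0.0814 in LOVO control, so a score step was widest there. Among peaks in genes of known strand, 86.5% lay on the gene's strand in the list labelled RKO knockdown, against 95.1% in LOVO knockdown, 94.8% in RKO control and 94.0% in LOVO control. The part of depth and of opposite-strand signal in the results was not tested.

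Peaks were then counted per gene, using peaks that overlapped the body of 1 gene only, 25573 in the list labelled RKO knockdown and 25401 in LOVO knockdown. Genes with 3 or more peaks in either list were compared, and a gene was called when its number of peaks plus 1 differed at least 4-fold, so that 3 peaks against 0 is the smallest difference called. Of 4993 genes, 817 (16.4%) had more peaks in the list labelled RKO knockdown and 705 (14.1%) more in LOVO knockdown. Which direction held more calls depended on the setting. It was 736 with more in RKO knockdown against 783 with more in LOVO knockdown when both lists were cut to the same number of peaks. It was 501 against 705 after scaling to the gene-assigned totals, and 832 against 346 with a score of 5 or more. That score cut kept 29016 of 34015 RKO knockdown regions but 18577 of 31060 LOVO knockdown regions, so it removed more from LOVO knockdown. Most called genes were at 0 on one side. LOVO knockdown had no peak in 759 of the 817, and the list labelled RKO knockdown had none in 613 of the 705. Of the calls, 300 were exactly 3 against 0 with more in RKO knockdown and 231 exactly 3 against 0 with more in LOVO knockdown. The median log2 difference over the genes compared, of peaks plus 1, was -0.19, RKO knockdown over LOVO knockdown. Long non-coding RNA genes were called more often than coding ones. Of 257 such genes compared, 115 (44.7%) had more peaks in the list labelled RKO knockdown and 55 (21.4%) more in LOVO knockdown, where protein-coding genes gave 14.6% and 13.6% of 4640. Of the 817 genes, 520 had no peak in RKO control and 257 none in any of the 10 other lists, against 1 of the 705.

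**Figure D3:**
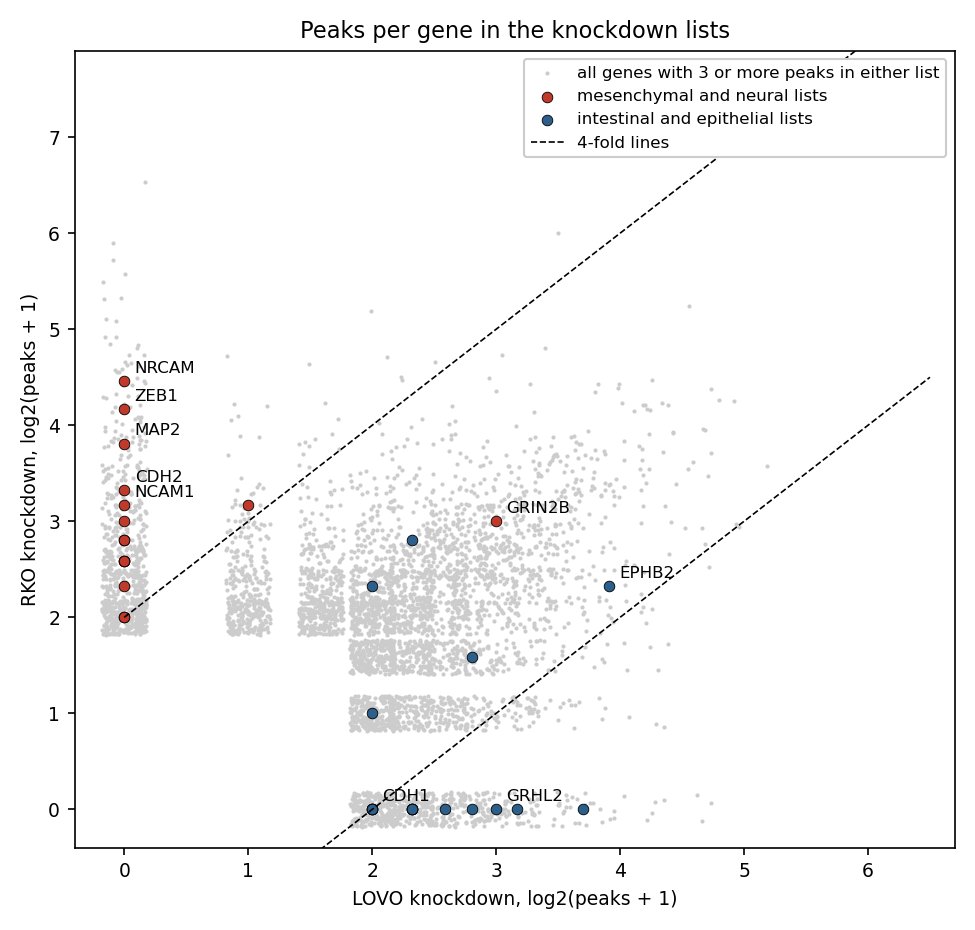
Peaks per gene on a log2(peaks + 1) scale, list labelled RKO knockdown (vertical) against LOVO knockdown (horizontal), for genes with 3 or more peaks in either list (grey, spread slightly to separate points), with members of 4 marker lists coloured and the 4-fold lines dashed. Mesenchymal and neural genes such as NRCAM with 21 and 0 peaks lie along the left edge, and intestinal and epithelial genes such as GRHL2 with 0 and 7 along the bottom.

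The genes with the largest excess in the list labelled RKO knockdown had 29 to 87 peaks in it. ADARB2 (chromosome 10, 1177313 to 1737525, GRCh38), a brain member of the RNA-editing enzyme family, had 87 peaks in the list labelled RKO knockdown and 0 in LOVO knockdown, and 0 in all other lists. All 87 lay on the strand of the gene. SNTG1 (chromosome 8, 49909796 to 50796692), a syntrophin of neurons, had 57 against 0, FAT3 (chromosome 11, 92224818 to 92896473), an atypical cadherin, 49 against 0, and RGS6, a regulator of G protein signalling, 44 against 0. MAGI2, a synaptic scaffold, had 43 against 0, the non-coding LOC107985664 42 against 0, DPP6, an auxiliary subunit of potassium channels, 35 against 0, SDK1, a synaptic adhesion protein, 32 against 0, NRG1, a ligand of ERBB receptors, 31 against 0 and TRPM3, a cation channel, 31 against 0. RKO control and LOVO control had 0 peaks in all of these genes. HIVEP3, a zinc finger transcription factor, had 67 against 9, with 3 in RKO control and 10 in LOVO control.

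Several of the leading genes also had peaks in other lists or on the opposite strand. NRG1 had 15 and 17 peaks and SDK1 12 and 13 in the SKOV3 control lists. PTPRN2, a receptor-type phosphatase of secretory vesicles, had 29 peaks in the list labelled RKO knockdown and 0 in LOVO knockdown, but 12 in RKO control and 15 in LOVO control. In the SKOV3 control lists PTPRN2 had 88 and 87 peaks, and in those labelled OVCAR8 knockdown 59 and 58. TTC28 had 29 against 0, with 14 in RKO control. EGFR (chromosome 7, 55019017 to 55211628) had 32 against 3, with 4 in RKO control and 8 in LOVO control, and 13 of its 32 peaks lay on its own strand. The other EGFR peaks lay on the opposite strand.

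The genes with the largest excess in LOVO knockdown had 17 to 31 peaks in it. CCSER1 (chromosome 4, 90127394 to 91605295) had 0 peaks in the list labelled RKO knockdown and 25 in LOVO knockdown. MYH14, a non-muscle myosin, had 0 against 20, AHNAK2 0 against 19, the chloride channel ANO1 0 against 18, and CGN, which encodes cingulin of tight junctions, 1 against 19. MYH9 had 1 against 18, with 19 in RKO control and 16 in LOVO control, so the list labelled RKO knockdown was the low one of the 4. The remaining leading genes were TRAPPC9 with 7 against 31, XKR9 0 against 24, PRKG1 0 against 23, ABR 5 against 27, PDE4D 2 against 22, CEMIP 5 against 23, ATP10B 0 against 17 and COPG2 2 against 19. RKO control held 38 peaks at TRAPPC9, 23 at COPG2 and 10 each at CGN and AHNAK2. It held 7 at ABR, 3 each at MYH14 and PDE4D, 1 at CEMIP and 0 at CCSER1, XKR9, PRKG1, ANO1 and ATP10B. At COPG2, 1 of the 19 LOVO knockdown peaks lay on the strand of the gene.

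Genes of the intestinal lineage carried peaks in LOVO knockdown and rarely in the list labelled RKO knockdown. Of 26 intestinal genes, 5 had a peak in the list labelled RKO knockdown and 15 in LOVO knockdown, with 17 and 74 peaks in all. Of the 12 with 3 or more peaks, 0 had more in RKO knockdown and 7 more in LOVO knockdown. Over all genes compared the shares were 16.4% and 14.1%. The median log2 difference was -2.0, where the median over all genes compared was -0.19. The 7 had 0 in the list labelled RKO knockdown, and 3 or more peaks against 0 always meet the 4-fold rule. HNF4A, a transcription factor of gut and liver epithelium, had 0 peaks in the list labelled RKO knockdown, against 8 in LOVO knockdown, 0 in RKO control and 5 in LOVO control. The mucin gene MUC2 had 0 against 6, with 0 in RKO control and 6 in LOVO control. CDH17, the cadherin of the intestine, and LGR5, a receptor of intestinal stem cells, both had 0 against 4, and CEACAM5 0 against 3. For these 5 genes RKO control resembled the list labelled RKO knockdown in having no peak.

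CDX2, the homeobox factor that specifies intestinal epithelium, had 0 peaks in the list labelled RKO knockdown, 3 in LOVO knockdown, 3 in RKO control and 4 in LOVO control. EPHB2, a receptor of crypt cells, had 4 in the list labelled RKO knockdown, 14 in LOVO knockdown, and 11 in both controls, which is under the 4-fold rule. SOX9, a factor of crypt cells, had 4 against 3, with 0 in RKO control and 4 in LOVO control, so the 2 RKO lists differed at CDX2 and at SOX9 in opposite directions. GATA6 had 1 against 3 and AXIN2 2 against 6, and neither was called, nor was SOX9. Of the rest, VIL1 had 0 against 2, and LGALS4 and PHGR1 0 against 1 each.

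Epithelial genes showed the same direction with fewer peaks. Of 21 genes of the list, 2 had a peak in the list labelled RKO knockdown and 15 in LOVO knockdown, and the peaks numbered 2 and 41, with 11 in RKO control and 45 in LOVO control. All 6 members with 3 or more peaks were called with more in LOVO knockdown, where the share over all genes compared was 14.1%. These 6 had 0 in the list labelled RKO knockdown, and 3 or more peaks against 0 always meet the 4-fold rule. CDH1, which encodes E-cadherin, had 0 in the list labelled RKO knockdown against 3 in LOVO knockdown, 0 in RKO control and 4 in LOVO control. GRHL2, an epithelial transcription factor, had 0 against 7, with 0 in RKO control and 11 in LOVO control. KRT8 and KRT19, keratins of simple epithelia, had 0 and 0 against 5 and 3, ELF3 0 against 4 and the protease gene ST14 0 against 4. KRT8 had 2 peaks in RKO control and 3 to 7 in each of the 8 ovarian lists.

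Mesenchymal genes lay on the other side. Of 21 genes, 11 had a peak in the list labelled RKO knockdown and 1 in LOVO knockdown, with 64 peaks and 1 peak, and 21 and 1 in RKO control and LOVO control. All 8 members with 3 or more peaks were called with more in the list labelled RKO knockdown, at a median log2 difference of 2.70. Over all genes compared the share was 16.4%. All but CDH11 had 0 in LOVO knockdown, and 3 or more peaks against 0 always meet the 4-fold rule. ZEB1, a repressor of epithelial genes, had 17 against 0, and 20 in RKO control, so it was high in both RKO lists and absent from both LOVO lists. The other members were nearly absent from RKO control. CDH2 had 9 against 0, CDH11, a cadherin of mesenchyme, 8 against 1, SPARC, a matrix protein, 7 against 0, ZEB2 6 against 0, TCF4 5 against 0 and POSTN, the gene of periostin, 4 against 0, all with 0 in RKO control. VIM, the gene of vimentin, had 3 against 0, with 1 in RKO control. The strongest peak at VIM (chromosome 10, 17229271 to 17230831, score 33.7) overlapped a second gene and was not in that count. The collagen gene COL1A1 and TWIST2 had no peak in any of the 4 colorectal lists, though they had peaks in ovarian ones.

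**Figure D4:**
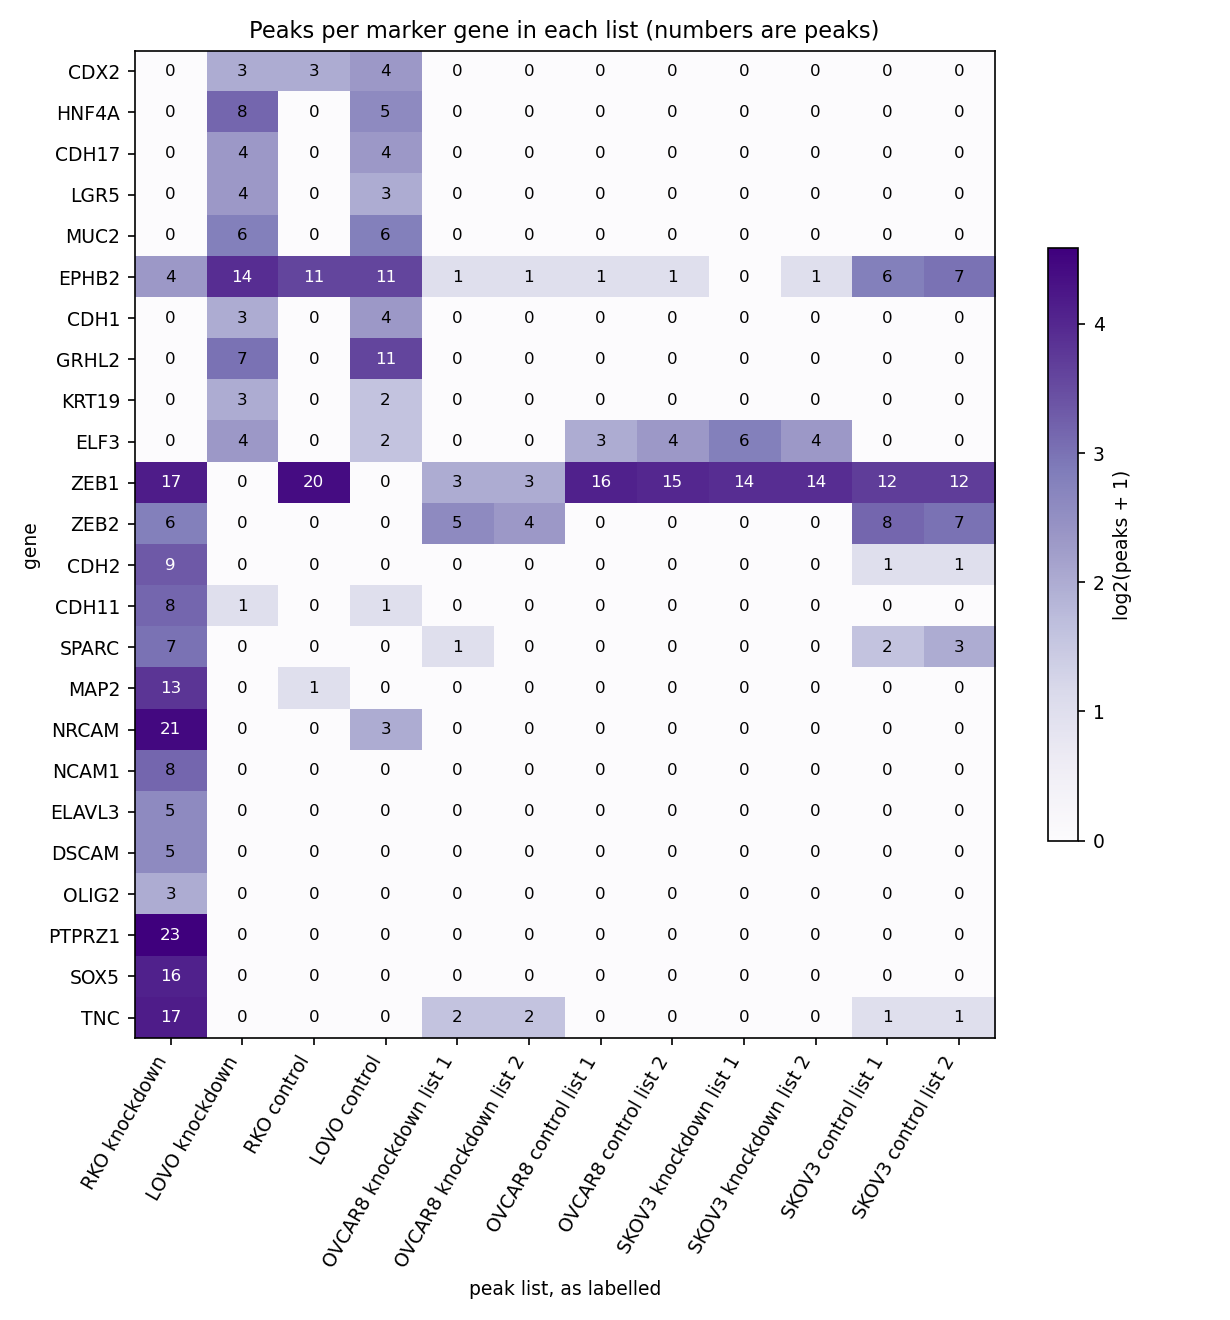
Number of peaks in 24 chosen marker genes (rows) in each of the 12 lists (columns, as labelled), with shade on a log2(peaks + 1) scale. The first column, RKO knockdown, is at 0 for most intestinal and epithelial genes and holds the only peaks of NCAM1, ELAVL3, DSCAM, OLIG2, PTPRZ1 and SOX5.

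Neural genes carried many peaks in the list labelled RKO knockdown and few in RKO control. Of 29 genes, 14 had a peak in the list labelled RKO knockdown, 3 in LOVO knockdown, 2 in RKO control and 2 in LOVO control, and the peaks numbered 75, 10, 3 and 14. Of 8 members compared, 7 had more in RKO knockdown and 0 more in LOVO knockdown, at a median log2 difference of 2.70. Over all genes compared the shares were 16.4% and 14.1%. The 7 had 0 in LOVO knockdown, and 3 or more peaks against 0 always meet the 4-fold rule. NRCAM, a neuronal adhesion protein, had 21 against 0, with 0 in RKO control and 3 in LOVO control. MAP2, a microtubule protein of dendrites, had 13 against 0, with 1 in RKO control. NCAM1 had 8 against 0, the neuronal tubulin gene TUBB3 6 against 0, the RNA-binding protein gene ELAVL3 5 against 0, DSCAM 5 against 0 and OLIG2, a transcription factor of the oligodendrocyte lineage, 3 against 0. TUBB3 had 2 in RKO control, and NCAM1, ELAVL3, DSCAM and OLIG2 had 0. GRIN2B, a glutamate receptor subunit, had 7 in both knockdown lists, 0 in RKO control and 11 in LOVO control, so a neural gene can carry peaks in LOVO as well.

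Peaks at the defining regulators were among the strongest of that list. The SOX2 gene lies inside the non-coding SOX2-OT, so its peaks overlap both and were not in the counts above. A plus-strand peak there (chromosome 3, 181711881 to 181714034) had a score of 68.2, the rank of 9 among 34015. SOX2-OT had 18 peaks of its own in the list labelled RKO knockdown and 0 in LOVO knockdown, and 0 in all other lists. The strongest OLIG2 peak (chromosome 21, 33027686 to 33028343) had a score of 43.5 and rank 299. SOX2 and SOX2-OT were singled out after their values were seen.

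Because of these values a list of 26 glial genes was added, chosen after the data were seen. The other lists were chosen with earlier results of these data known. Neither they nor the glial list are independent evidence of direction. The glial list held 121 peaks in the list labelled RKO knockdown, 31 in LOVO knockdown, 36 in RKO control and 31 in LOVO control. Of 17 members compared, 10 had more in RKO knockdown and 1 more in LOVO knockdown, where the shares over all genes compared were 16.4% and 14.1%. PTPRZ1 had 23 against 0, TNC, a matrix protein of glia and mesenchyme, 17 against 0, and the transcription factor genes SOX5 and SOX6 16 and 8 against 0, all with 0 in RKO control. NES, the gene of nestin, had 8 against 1, but 5 in RKO control. MBP, of myelin, ran the other way, with 0 in the list labelled RKO knockdown, 7 in LOVO knockdown, 12 in RKO control and 9 in LOVO control. NFIA had 4 in both knockdown lists.

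The remaining lineage lists gave few peaks. Liver genes had 0 in both knockdown lists, melanocyte genes 2 against 0, pluripotent genes 1 against 0, squamous genes 0 against 2 and endothelial genes 0 against 3. Blood genes had 0 peaks in the list labelled RKO knockdown and 11 in LOVO knockdown, of which the B-cell factor gene PAX5 held 7. Kidney genes had 12 against 1, with 10 in RKO control. Of 2 compared, 2 had more in RKO knockdown, where the share over all genes compared was 16.4%. They were the receptor gene CUBN at 3 against 0 and SALL1 at 4 against 0. Genes of lung had 6 against 5, of breast 5 against 6, of prostate 5 against 4, of muscle 2 against 6 and of the Müllerian tract and ovary 2 against 7. Broadly expressed genes, which served as a comparison, had 44 against 48. Of 7 compared, 0 had more in RKO knockdown and 1 more in LOVO knockdown, beside shares of 16.4% and 14.1% over all genes compared.

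**Figure D5:**
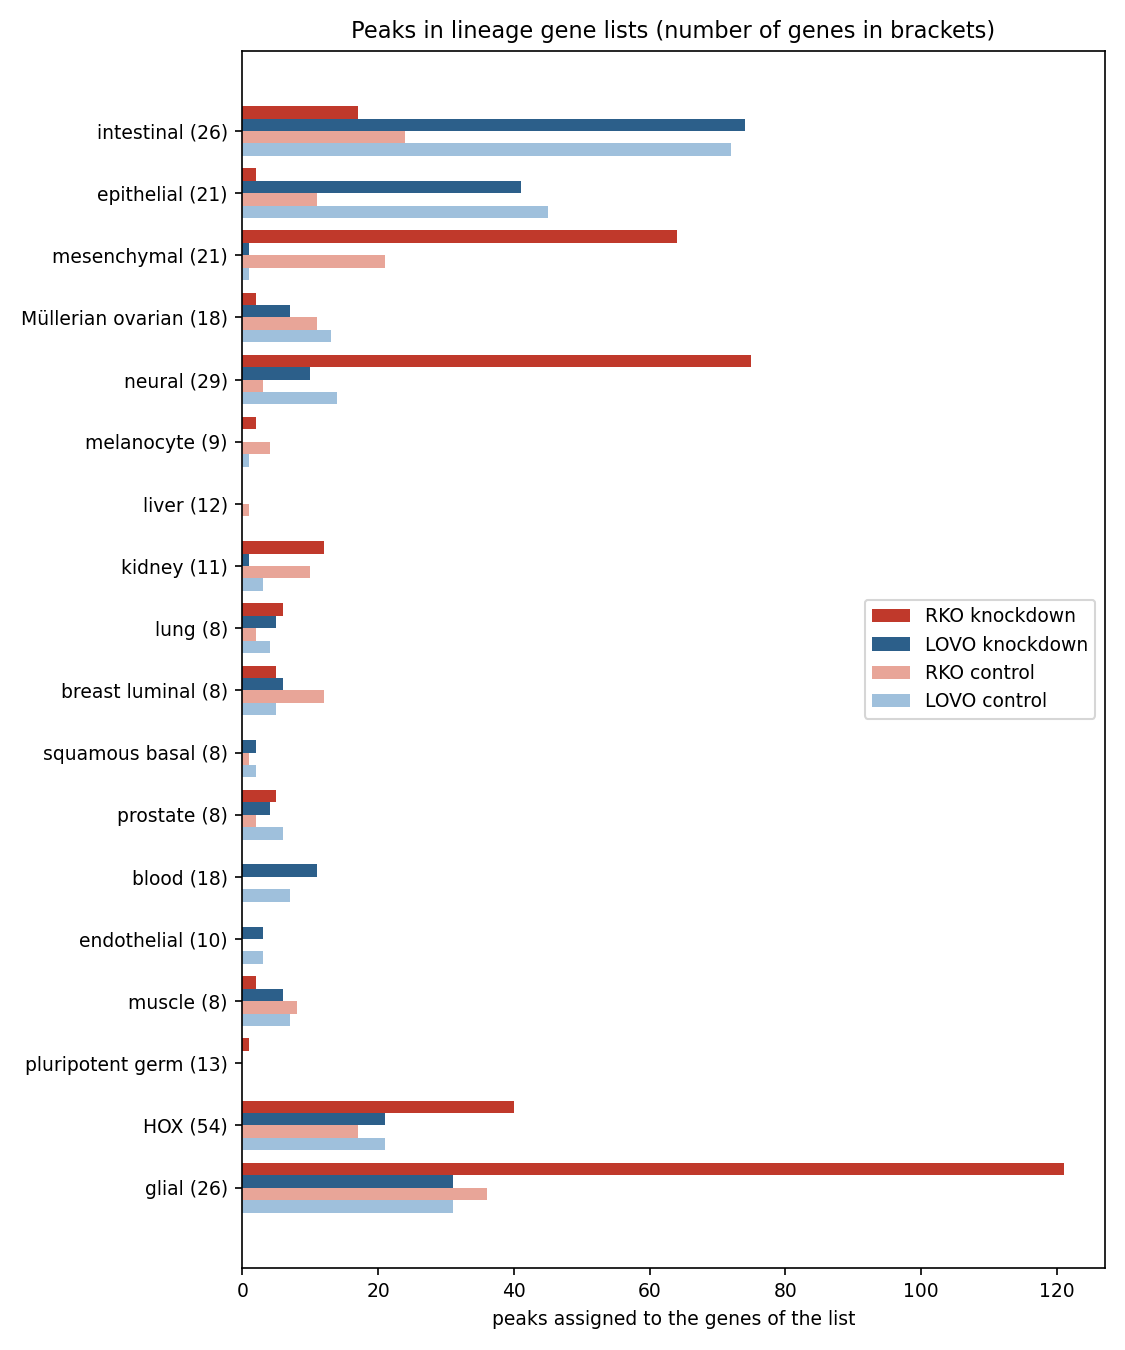
Peaks assigned to the genes of each lineage list (list size in brackets) in RKO knockdown, LOVO knockdown, RKO control and LOVO control. RKO knockdown leads in the mesenchymal list with 64, the neural list with 75 and the glial list with 121. LOVO knockdown exceeds it in the intestinal list with 74 against 17. The glial list was chosen after the values were seen, and the other lists with earlier results of these data known.

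HOX genes, which record position along the body axis, differed by cluster. The 54 genes and antisense RNAs of the list held 40 peaks in the list labelled RKO knockdown, 21 in LOVO knockdown, 17 in RKO control and 21 in LOVO control. Of 6 compared, 2 had more in RKO knockdown and 2 more in LOVO knockdown, beside shares of 16.4% and 14.1% over all genes compared. HOXD11 (6 against 0) and HOXC4 (3 against 0) had more in the list labelled RKO knockdown and had 0 in RKO control, and a HOXD11 peak with a score of 51.7 ranked 119 in that list. HOTTIP and HOXA11-AS, non-coding RNAs of the HOXA cluster, both had 0 against 3, and 0 and 2 in RKO control. HOXB9 had 3 against 4. HOXA11-AS lies beside HOXA11 on the opposite strand, and 2 of its 3 LOVO knockdown peaks were on its own strand.

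Of the mismatch repair genes, MSH3 had 0 peaks in the list labelled RKO knockdown and 4 in LOVO knockdown, with 2 in RKO control and 2 in LOVO control. With peaks that also overlap a second gene it had 2 against 5, which is under the 4-fold rule. MSH6, with 4 against 5, and MLH3, with 3 against 7, were not called.

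With the RKO control list set against LOVO knockdown instead, 9.41% of 5113 genes had more peaks in RKO control and 7.39% more in LOVO knockdown. By list, the calls with more in RKO control and with more in LOVO knockdown were 0 and 7 for intestinal genes, 0 and 5 for epithelial genes, 1 and 0 for mesenchymal genes and 0 and 1 for neural genes. With the list labelled RKO knockdown set against RKO control, 13.1% of 5398 genes had more peaks in the list labelled RKO knockdown and 15.3% more in RKO control. Mesenchymal genes then gave 6 and 0 calls, neural genes 7 and 0, glial genes 11 and 1, intestinal genes 1 and 1 and epithelial genes 0 and 1. LOVO knockdown against LOVO control gave calls for 1.05% and 2.68% of 4553 genes. These comparisons share lists with the one above, so their values stand side by side and are not independent.

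Gene families, picked by symbol after the values were seen, gave the following counts, beside 16.4% of all genes compared with more in the list labelled RKO knockdown and 14.1% with more in LOVO knockdown. They were picked for their values, so nothing is read from the counts. Of 8 ionotropic glutamate receptor genes compared, 6 had more peaks in the list labelled RKO knockdown and 1 more in LOVO knockdown. GRIA1 had 24 against 0, GRIN2A 18 against 0 and GRIK3 9 against 0, all with 0 in RKO control, while GRIA3 had 13 against 0 and 14 in RKO control. Of 11 collagen genes, 8 had more in the list labelled RKO knockdown, such as COL6A2 with 10 against 0 and COL4A2 with 9 against 0, and 2 had more in LOVO knockdown, COL17A1 with 0 against 5 and COL27A1 with 1 against 8. COL17A1 is a collagen of epithelial hemidesmosomes. Of 6 protocadherins, 5 had more in the list labelled RKO knockdown. Of 8 laminins, 4 had more in LOVO knockdown and 0 the reverse, among them LAMB3, a chain of an epithelial laminin, with 0 against 7. Of 3 keratins compared, 3 had more in LOVO knockdown. In the neurexin, neuroligin and contactin group, 5 of 8 had more in RKO knockdown, of which CNTNAP3 and CNTNAP3B are near-identical copies with uncertain counts. Zinc finger genes with ZNF symbols gave 67 calls with more in the list labelled RKO knockdown and 1 with more in LOVO knockdown, of 210 compared, with 1151 against 661 peaks, and 977 in RKO control.

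The difference also ran over whole stretches of the genome. In windows of 1 Mb, 24 held 20 or more peaks in the list labelled RKO knockdown and 0 in LOVO knockdown, and 12 of these were also at 0 in RKO control. Only 3 windows held 20 or more in LOVO knockdown and 0 in RKO knockdown. The window at chromosome 11, 92000001 to 93000000, with FAT3, had 51 peaks in the list labelled RKO knockdown, that at chromosome 8, 50000001 to 51000000, with SNTG1, 51, and that at chromosome 3, 147000001 to 148000000, with ZIC1, a transcription factor of the neural plate, 29. The window of SOX2 (chromosome 3, 181000001 to 182000000) had 24. The LOVO knockdown window with most peaks lay on chromosome X, 94000001 to 95000000, with 35, where LOVO control had 67. By chromosome, the number of peaks in the list labelled RKO knockdown over that in LOVO knockdown was highest on X (1.59), 13 (1.43) and 20 (1.41) and lowest on 17 (0.803) and 12 (0.809). Copy number was not measured in the lists.

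The genes with most shared regions carried many peaks in both lists. DST, of the plakin family that links cytoskeletal filaments, had 20 shared regions, with 35 peaks in the list labelled RKO knockdown and 23 in LOVO knockdown. TNRC18 had 18, with 22 and 25 peaks. CLIP2, SCFD2 and SPIDR each had 14, FAM20C and MACF1 13, and COMMD10 12. None of the 8 was called in either direction.

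Singled out after their values were seen, 3 genes had fewer peaks in the list labelled RKO knockdown than in the other colorectal lists. MGMT, the DNA repair enzyme that removes alkyl groups from guanine, had 0 peaks in the list labelled RKO knockdown, 7 in LOVO knockdown, 13 in RKO control and 11 in LOVO control. MET, a receptor tyrosine kinase, had 0, 6, 12 and 13. MTAP, an enzyme of methionine salvage, had 4, 6, 12 and 20, and 1 of the 4 peaks in the list labelled RKO knockdown lay on the strand of the gene, against 6 of 6 in LOVO knockdown.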

How the data were processed

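Peak lists of MeRIP-seq on chromatin-associated RNA were analysed. Per the submitters' processing notes, the tools were MACS2 2.2.7.1, HISAT2 2.1.0, Bowtie2 2.4.2 and Trim Galore 0.6.6, without their roles, on hg38. The authors deposited 1 list for each RKO and LOVO group. The score of each peak, as deposited, has no header and is never below 3. For the ovarian lines the deposited lists, 1 per MeRIP library, give a fold enrichment (a linear ratio) per peak. The use made of the second replicate in these lists, and library depth, were not known.

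Same-strand peaks of a list were merged on the autosomes and X, which left out 13 peaks of RKO knockdown and 34 of LOVO knockdown on Y or the mitochondrial genome. Overlap was 1 bp on the same strand. Peaks were assigned to a gene when they overlapped 1 gene body of the RefSeq table (GRCh38.p14) and no other. Peaks in several genes (14.8% in RKO knockdown, 13.3% in LOVO knockdown) and outside genes (10.02% and 4.97%) were left out of gene counts. With 1 list per group no test was made. The genes named are the 14 with the largest difference in each direction past the 4-fold rule, list members with 3 or more peaks in either knockdown list (any member of the intestinal, epithelial, mesenchymal and mismatch repair lists), the 8 with most shared regions and METTL3, besides those marked as chosen after their values were seen. The members and the 19 gene lists were chosen with earlier results of these data known. Strand came from the RefSeq promoter table and was not held for every gene. The counting was tested on simulated peaks. Python 3.11.15, pandas 2.3.3, numpy 2.4.6 and scipy 1.17.1 were used. Some genes of the lists are counted in the totals but not reported by name here.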

Additional observations from a re-analysis of the deposited data

How the results depend on the processing

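No paired analysis was possible because RKO and LOVO have 1 peak list per group and no value comes from a test, and for the same reason no replicate could be left out. The share of regions labelled RKO knockdown without a LOVO knockdown peak, 62.1% as reported, was 67.9% when 50% of the region had to be covered, 61.0% with strand ignored, 61.1% with equal numbers of peaks, 69.9% with a score of 5 or more, 51.3% for the highest-scoring 50% of regions and 63.2% with regions merged over both lists. The share for LOVO knockdown, 57.9% as reported, was 63.3% with 50% covered, 60.2% with equal numbers, 52.7% with a score of 5 or more, 46.5% for the highest-scoring 50% and 59.3% with regions merged. Replacing lists, added after seeing the data, gave 50.4% and 38.4% with RKO control in place of RKO knockdown, and 57.0% and 59.0% with LOVO control in place of LOVO knockdown. Genes with more peaks in RKO knockdown numbered 817, and 370 with a minimum of 5 peaks, 501 after scaling to the gene-assigned totals (3 peaks against 0 then falls just under the rule, by construction) and 481 with RKO control in its place. Genes with more in LOVO knockdown numbered 705, and 346 with a score of 5 or more, 336 with a minimum of 5 peaks and 378 with RKO control. The 7 intestinal calls became 3 with a score of 5 or more and 3 with a minimum of 5 peaks, and the 6 epithelial calls 3 and 2. With RKO control in place of RKO knockdown the 8 mesenchymal calls became 1, the 7 neural calls 0, the 10 glial calls 1 and the 2 HOX calls 0. The HOX calls were 1 with a minimum of 5 peaks and 1 after scaling. The score cut of 5 kept 29016 RKO knockdown regions and 18577 LOVO knockdown regions. By construction it therefore left LOVO knockdown with fewer peaks to count or to match. Except where construction is named, the cause was not tested. The larger side changed under some settings. Calls with more in RKO knockdown against calls with more in LOVO knockdown were 736 and 783 with equal numbers of peaks, 501 and 705 after scaling, and 707 and 864 with LOVO control in place of LOVO knockdown. When peaks in several genes were counted for each gene, 6659 genes were compared. Of these, 1130 had more peaks in RKO knockdown and 829 more in LOVO knockdown.

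The lists hold peaks and not reads, and a missing peak, a missing transcript and low depth cannot be told apart. No value has an error between replicates.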
